A study of Mus musculus with 4 samples.

Results

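The comparison described here sets culture experiment 1 against culture experiment 2 of mouse spleen B cells, across all genes. Its members are all 4 of the 4 arrays of the series, 2 from each experiment, chosen by the experiment that their titles give and by no measured value. In each experiment, B cells were purified with magnetic beads from the spleen of 1 C57BL/6 male (WT) and 1 male labelled Ackr4ko, which lacks an atypical chemokine receptor. All 4 cultures were kept for 3 days in the same medium with 10 µg/mL anti-IgM and 10 µg/mL anti-CD40 (clone FGK4.5), so no array holds unstimulated cells. The donors differed between the experiments. In experiment 1 the donor labelled Ackr4ko was 73 days old and the WT donor 77 days, and in experiment 2 they were 71 and 74 days old. Total RNA, 50 ng per array, was labelled with Cy3 and hybridised to Agilent 1-colour arrays. The question is which gene programmes vary between independent cultures under the same stimulus. Experiment number is confounded with donor, culture, RNA preparation and place on the slide, so these cannot be told apart.

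Anti-IgM crosslinks the B cell receptor and anti-CD40 replaces the signal of a helper T cell. Together they drive resting B cells into growth and division, with induction of chemokines, costimulatory ligands and metabolic enzymes, and such cells can go on towards germinal centre or plasma cell states. Metallothioneins, the small cysteine-rich proteins that lead the differences below, bind zinc and copper, and their genes respond to metal ions, glucocorticoids and oxidative stress through the factor MTF1 and others.

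The genes Mt2 and Mt1 showed the largest and the fourth largest increase in experiment 2 among genes measured in both experiments, and they lie next to each other on chromosome 8. Their probes map to chr8:96697371-96697430 and chr8:96704165-96704224 (mm9). The 250 bases before the start of each gene in the RefSeq promoter table (GRCm38.p6, plus strand, chr8:94172368-94172617 for Mt2 and chr8:94178839-94179088 for Mt1) are shown because these neighbours moved together. Capitals mark every match, on either strand, to the 9 short motifs searched:
Mt2: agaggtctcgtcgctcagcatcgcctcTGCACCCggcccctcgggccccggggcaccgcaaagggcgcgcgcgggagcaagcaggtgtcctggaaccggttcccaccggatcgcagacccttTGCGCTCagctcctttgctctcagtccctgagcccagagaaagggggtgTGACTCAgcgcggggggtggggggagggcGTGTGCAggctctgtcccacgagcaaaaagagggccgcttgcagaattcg
Mt1: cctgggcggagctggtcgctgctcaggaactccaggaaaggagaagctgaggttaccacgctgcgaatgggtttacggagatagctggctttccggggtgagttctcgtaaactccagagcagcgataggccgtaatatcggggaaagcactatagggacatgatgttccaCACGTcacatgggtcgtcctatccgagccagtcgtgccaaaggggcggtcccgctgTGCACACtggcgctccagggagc
In Mt2 the capitals are 3 matches to the metal response core, TGCACNC or TGCGCNC, at -223 to -217, -128 to -122 and -50 to -44 from the start, the last on the minus strand, and 1 AP-1 site, TGANTCA, at -79 to -73. In Mt1 they are 1 metal response core at -23 to -17 and 1 hypoxia response core, ACGTG, at -79 to -75 on the minus strand. No match overlapped another. With the 50 bases after the start included, the cores numbered 4 in Mt2 and 3 in Mt1. The metal response core was chosen after the metallothionein values had been seen. Of 32851 RefSeq promoters of the same length, 21.4% held at least 1 metal response core and 1.26% held at least 3, 6.75% held an AP-1 site and 16.6% a hypoxia response core. The same windows before Il7r, Ccl3 and Xcl1, described below, held none of these letters, nor those of the interferon stimulated response element, the cAMP response element (TGACGTCA), the C/EBP-ATF element (TGATGNAA), the cell cycle homology region (TTTGAA), the sterol element (TCACNCCAC) or the E-box (CACGTG). A further gene chosen by the same rule, Ccl4, is named only. These matches describe the letters and no factor was measured.

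The 4 arrays each carried 39429 probes with 4 spots, and shared 1 slide and 1 scanning session. Experiment 1 held slide positions 1 and 2 and experiment 2 positions 3 and 4, so slide position and experiment cannot be told apart. The processed signal reached a 75th percentile of 1277 and 916 in experiment 1 and 740 and 913 in experiment 2, here and below with the array labelled Ackr4ko first and the array labelled WT second. The WT array of experiment 2 stood apart, with 42.2% of its probes well above background against 49.5% to 54.9% on the others, 6.24% of its spots marked as outliers against at most 2.12%, and a local background of up to 292 where the others reached 61 to 76. Its dimmest probe well above background had a log2 signal of 5.84, against 3.82 to 4.60 on the others, so dim genes are read there with less certainty. The deposited value table and the scanner files exchange the genotypes within each experiment, as 4 of 4 columns matched the array of the other label best (r at least 0.999). That exchange leaves each array in its experiment and the same arrays paired, so no difference between experiments turns on it. All 16 B cell identity genes that were looked up, among them Ms4a1, Cd79a and Pax5, were well above background on all 4 arrays. Ackr4 itself was well above background on too few arrays to be tested and checks no label.

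Arrays of the same experiment were not the closest to each other. Over the 15961 genes tested, the log2 difference between arrays had an SD of 0.51 within experiment 1 and 0.64 within experiment 2, with a difference of at least 2-fold in 4.64% and 10.1% of genes. Between experiments the pair labelled Ackr4ko had an SD of 0.68 (12.8% of genes at least 2-fold) and the pair labelled WT 0.54 (6.23%). The smallest SD of the 6 array pairs, 0.50, was between the Ackr4ko array of experiment 1 and the WT array of experiment 2, and the largest, 0.86, between the other crossed pair. The spread between experiments was thus of about the size of the spread between labelled genotypes within an experiment.

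With the genotype label as a block, 650 of 15961 genes passed the test (limma, Benjamini-Hochberg adjusted p under 0.05, n = 2 arrays per experiment), which is 4.07%. Of these, 329 (2.06%) were higher and 321 (2.01%) lower in experiment 2. Before adjustment, 2521 genes had a p under 0.05. The fit has 1 residual degree of freedom per gene and gave all genes the same standard error, 0.35 on the log2 scale, so that the calls follow the size of the mean log2 difference alone, of which the smallest called was 1.073. That error is shared by all genes and does not measure the spread of any single gene. It was used for every mean log2 difference of experiment 2 minus experiment 1 printed below. It does not apply to differences within 1 pair, to those with 1 array left out or to list medians. The word "called" means past this test. The calls were not stable: limma called 0 genes once arrays were quantile normalized (2321 had an unadjusted p under 0.05), 0 in the authors' value table (2352), 0 without the genotype block (1565), and, with no block possible, 0 without the Ackr4ko array of experiment 2 (1178) or without the WT array of experiment 2 (3900). Leaving out an array of experiment 1 gave 200 calls without the Ackr4ko array and 35 without the WT array. A permutation test of 2 arrays against 2 cannot give an exact two-sided p below 0.333. All gene calls below carry this limit. The gene lists below were chosen with earlier results of these data known. The share of a list that was called is therefore a description beside the share of all genes, and no list was tested.

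A count that needs no error model was taken from the genotype-matched pairs, which share no array. In 141 genes (0.883% of those tested) the signal was at least 2-fold higher in experiment 2 in both pairs, and in 152 (0.952%) at least 2-fold lower, against 37 genes at least 2-fold different in opposite directions. The 141 genes were 11.9% of those at least 2-fold higher in the Ackr4ko pair and 29.6% of those in the WT pair, and the 152 were 17.9% and 29.3% of those lower. In 60 of the 152 lower genes, and in 2 of the 141 higher ones, the dimmer experiment was not well above background on either array. Among genes well above background on all 4 arrays, 90 were higher and 57 lower. Over all tested genes the sign was the same in both pairs for 33% (higher) and 31.9% (lower), and the experiments did not overlap for 23.5% (both arrays of experiment 2 above both of experiment 1) and 24.1% (both below). Across the 15961 genes, which share arrays and are not independent, the differences in the pairs correlated at r = 0.42 (Spearman rho = 0.47).

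**Figure D1:**
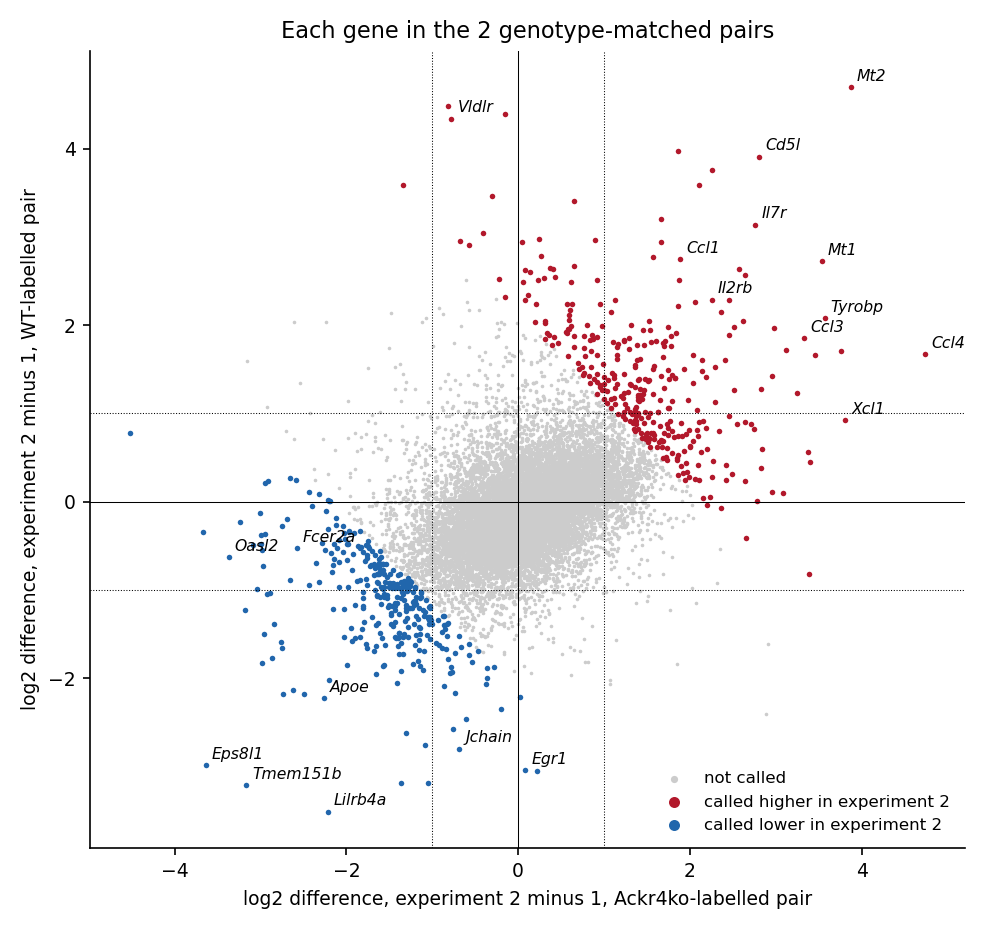
Log2 difference of experiment 2 minus experiment 1 for each of 15961 genes, in the pair of arrays labelled Ackr4ko (horizontal) and the pair labelled WT (vertical). Coloured points are the 329 genes called higher and the 321 called lower, dotted lines mark a 2-fold difference, and Mt2 (3.87 and 4.70) lies farthest in the upper right.

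Metallothioneins led the genes higher in experiment 2. The scaled log2 signal of Mt2 was 11.94 and 8.34 in experiment 1 and 15.81 and 13.04 in experiment 2. Both arrays of experiment 2 lay above both of experiment 1, with a mean difference of 4.29 (limma adjusted p = 1.57e-30). That p rests on the shared error, and limma gave an adjusted p of 0.32 after quantile normalization. In each experiment the array labelled Ackr4ko was the higher. Mt1 was at 12.80 and 11.68 in experiment 1 and 16.33 and 14.41 in experiment 2, a difference of 3.13 that was 1.65 for its other probe. The zinc exporter Slc30a1, which responds to the same metals, differed by 0.44, and Mt3, a family member best known from brain, by 0.20, neither called. Of the 20 tested genes of the metallothionein and NRF2 antioxidant list, 11 were higher in both pairs and 4 lower (33% and 31.9% of all genes). The median of the list was 0.21 beside 0.02 over all genes. Mt1 and Mt2 were the members called (10%, against 4.07% of all genes). Other antioxidant genes gave values below the threshold, such as thioredoxin Txn1 at 0.98, the glutathione peroxidase Gpx4 at 0.95 and the haem oxygenase Hmox1 at -0.11.

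Chemokine ligands formed the next group. Of 20 tested chemokine and chemokine receptor genes, 5 were called higher (25%, against 2.06% of all genes) and 0 lower, while the median of the list was 0.13. All 5 were ligands. Ccl4 and Ccl3, inflammatory chemokines, are induced in B cells by receptor stimulation. The signal of Ccl4 was 10.71 and 9.47 in experiment 1 and 15.44 and 11.14 in experiment 2, a difference of 3.20. Ccl3, at 9.86 and 8.20 in experiment 1 and 13.19 and 10.05 in experiment 2, differed by 2.59. In both genes the Ackr4ko array of experiment 2 was the highest of the 4 and the WT array of that experiment exceeded the best array of experiment 1 by less than 1 log2 unit. Xcl1, a chemokine of activated T and NK cells, was at 5.31 and 5.44 in experiment 1 and 9.12 and 6.36 in experiment 2, the last not well above background. Ccl1, the ligand of CCR8, differed more evenly, from 6.84 and 6.43 to 8.72 and 9.18, a difference of 2.32. Ccl9, a ligand of CCR1, was called at 1.61, but its WT arrays were not well above background in either experiment and its experiments overlapped. Other ligands gave no call, with Ccl22 at 0.33, Ccl17 at -0.54, Ccl5 at -0.65 and Cxcl9 at -0.96. Among receptors Ccr7, which guides B cells to the T cell zone, gave 0.72, and Cxcr5, which guides them to follicles, 0.17.

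**Figure D2:**
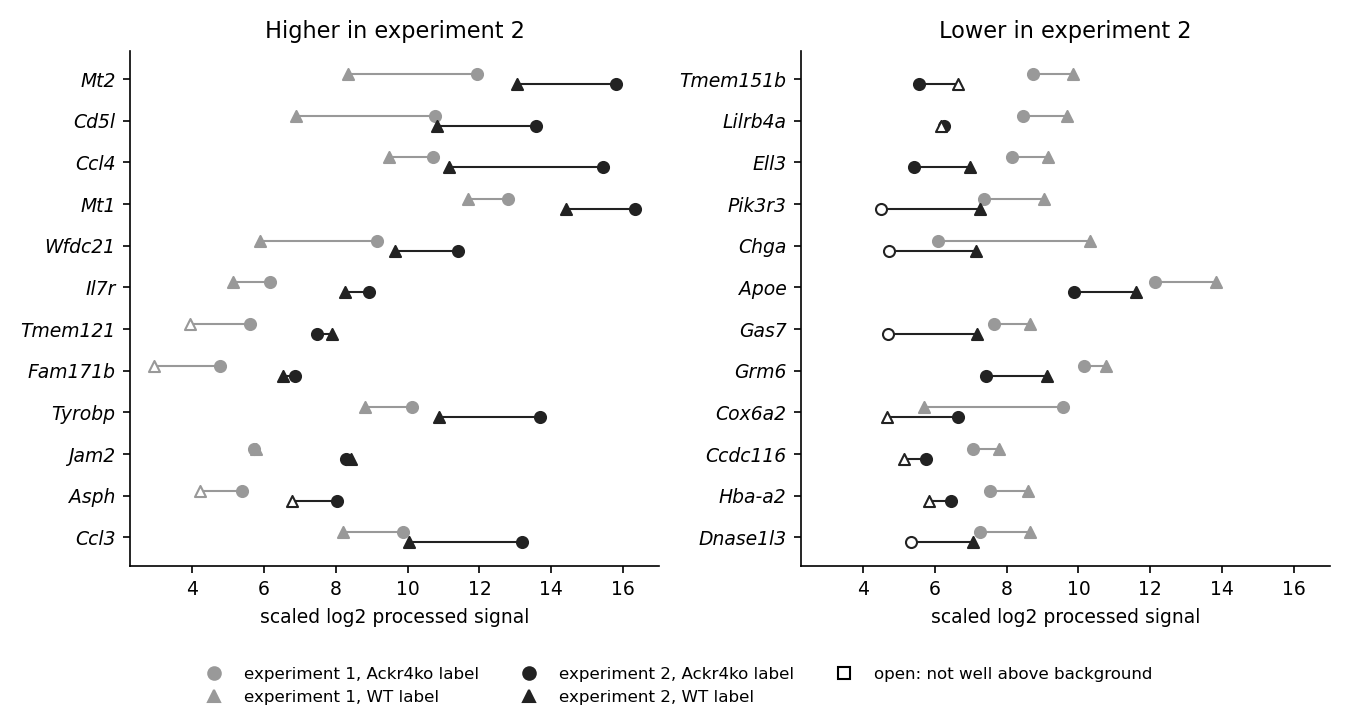
Scaled log2 processed signal on the 4 arrays of the 12 genes in each direction with the largest called difference among those measured in both experiments, past 2-fold in each pair and with an established symbol, with experiment 1 in grey and experiment 2 in black, the Ackr4ko label as circles and the WT label as triangles, and open symbols for arrays not well above background. All 12 genes on the left and 10 of the 12 on the right have no overlap between experiments, and Chga and Cox6a2 overlap.

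Il7r and Il2rb, receptor chains for cytokines that use the common gamma chain, were called higher. Il7r, the receptor of interleukin 7, which early B cells need and mature B cells largely lose, was at 6.17 and 5.13 in experiment 1 and 8.93 and 8.27 in experiment 2, a difference of 2.95 in which the experiments did not overlap. Il2rb, the beta chain shared by the receptors of interleukins 2 and 15, was at 6.17 and 5.64 and then at 8.42 and 7.93, a difference of 2.27, and its probes gave 2.13 to 2.27. Cish, an inhibitor induced by STAT5, was at 8.12 and 8.71 in experiment 1 and 10.77 and 8.95 in experiment 2 and was called at 1.44. In the same list the kinase Pim1 was lower, at 10.45 and 10.87 in experiment 1 and 9.53 and 9.25 in experiment 2 (-1.27), as was Il27ra, a receptor chain for interleukin 27 (-1.26). Over the 34 tested cytokine receptor, STAT and SOCS genes, 3 were called higher and 2 lower (14.7%, against 4.07% of all genes), and the median was -0.05.

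Of 12 tested genes for secreted cytokines, 2 were called higher (16.7%, against 2.06% of all genes) and 0 lower, with a median of -0.25. Ifng, encoding interferon gamma, was at 7.22 and 6.98 in experiment 1 and 9.08 and 7.72 in experiment 2 (1.30). Il6 was called at 1.71, but both arrays labelled WT were not well above background and the arrays labelled Ackr4ko were at 8.52 and 9.65, so its difference between experiments was measured in 1 pair alone. Genes inducible by interferon gamma had no call. Among 24 interferon gamma and MHC class I genes, 3 were higher in both pairs and 12 lower, where 33% and 31.9% of all genes were. Their median was -0.24, and Gbp7, a guanylate binding protein, gave -1.05.

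Several genes best known from other blood cells were among the largest differences. Cd5l, a secreted scavenger protein of macrophages, was at 10.76 and 6.90 in experiment 1 and 13.57 and 10.81 in experiment 2, a difference of 3.36, with the WT array of experiment 2 just above the Ackr4ko array of experiment 1. Tyrobp, the adaptor of activating receptors on NK and myeloid cells, was at 10.11 and 8.80 and then at 13.68 and 10.88 (2.82). Thy1, a surface protein of T cells and some other cells, was not well above background on either array of experiment 1 and was at 7.49 and 6.81 in experiment 2, at least 6.44-fold brighter. This bound sets the mean of the brighter experiment against the higher of each dim array's own value and its lowest signal well above background. The cystatin Csta2 had a bound of 3.24-fold in the same direction, at 5.85 and 6.37 in experiment 2. Its log2 difference shrank to 0.14 under another scaling. Wfdc21, a secreted protein with a whey acidic protein domain, differed by 3.01, and the junctional adhesion gene Jam2 by 2.61, with values of 5.71 and 5.79 against 8.29 and 8.42 that made it the most even of these genes. Tmem121 (2.92), Fam171b (2.85) and the aspartyl hydroxylase Asph (2.60) completed the 12 largest among genes measured in both experiments and at least 2-fold higher in both pairs. In these 3 the WT array of experiment 1 was not well above background, nor in Asph that of experiment 2.

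Marker lists of other spleen cells were set beside these genes, and their part in the differences was not tested. In bulk RNA, fewer cells of a type and less RNA per cell cannot be told apart. Of all genes tested, 33% were higher and 31.9% lower in both pairs, and 2.06% were called higher and 2.01% lower. Of 12 NK and innate lymphoid genes, 5 were tested and all 5 were higher in both pairs, with a median of 0.76. Their summed linear signal was 2830 and 3700 in experiment 1 and 7360 and 4200 in experiment 2. Xcl1 and the death ligand Fasl (1.25, with overlapping experiments) were called. On all 4 arrays 4 members were well above background, namely Fasl, Klra1, Nkg7 and Prf1. On no array were 7 members, among them the defining Ncr1, Klrb1c and Eomes. T cell markers had 10 of 16 genes tested, 5 higher and 3 lower in both pairs, with a median of 0.12. Their sum was 48700 and 60600 in experiment 1 and 56400 and 60000 in experiment 2. Cd3d gave 0.81 and Cd28 -0.63, and none was called. On all 4 arrays 6 members were well above background, namely Cd3d, Cd3e, Cd3g, Cd4, Cd5 and Lck. On no array were 5 members, among them Cd8a, Cd8b1 and Themis. Macrophage and monocyte markers, with 7 of 18 tested, had 2 called lower and 0 higher, although Cd5l was higher. Ms4a7 was called at -1.35, with overlapping experiments. The red pulp macrophage factor Spic had a bound of 2.28-fold brighter in experiment 1, but its log2 difference shrank to -0.23 under another scaling. The sum of the macrophage and monocyte markers was 39900 and 54000 against 29900 and 52400. Adgre1, Cd68, Csf1r, Mpeg1 and Ms4a7 were well above background on all 4 arrays. On no array were 9 members, among them Lyz2, C1qa, Cd14, Mrc1 and Vsig4. Dendritic cell markers, with 8 of 13 tested, had Batf3 called higher at 1.71 on the arrays labelled Ackr4ko, with both WT arrays not well above background. Their sum was 101000 and 103000 against 152000 and 116000. Ccl22, Ccr7, Flt3, Siglech and Zbtb46 were well above background on all 4 arrays. On no array were 5 members, among them Itgax, Xcr1 and Clec9a. Haemoglobin genes went both ways. The beta chain Hbb-bt was at 12.78 and 11.53 in experiment 1 and 15.20 and 11.94 in experiment 2 (1.42), and the alpha chain Hba-a2 at 7.54 and 8.59 and then at 6.45 and 5.84 (-1.92). Both have near-identical copies that array probes may not tell apart. The erythroid and platelet list, with 5 of 16 tested, had a sum of 12600 and 6030 against 50300 and 7860. Car2, Ermap and Hbb-bt were well above background on all 4 arrays. On no array were 8 members, among them Alas2 and Klf1. Neutrophil and mast cell markers (3 of 15 tested) and stromal and endothelial markers (7 of 18) had no call, with medians of 0.13 and -0.23, Elane at -0.17 and Cdh5 at -0.96.

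Regulators of early signalling were called in both directions. Of 29 tested immediate early and receptor feedback genes, 3 were called higher and 2 lower (17.2%, against 4.07% of all genes). In both pairs 7 were higher and 7 lower, where 33% and 31.9% of all genes were, and the median was -0.23. The orphan nuclear receptor Nr4a2 was at 7.52 and 7.10 in experiment 1 and 10.90 and 7.66 in experiment 2 (1.97), and its other probe gave 1.56. The stress-induced factor Atf3 (2.03) and the feedback inhibitor Spry1 (1.68) were called while both of their WT arrays were not well above background. The zinc finger factor Egr1 was at 13.15 and 13.44 in experiment 1 and 13.23 and 10.40 in experiment 2 (-1.48), so that 1 array carried its difference, the WT array of experiment 2 that stood apart. Zfp36, which destabilises cytokine mRNA, was lower at -1.22, with that same array not well above background. None of the 23 tested NF-kappaB genes was called, with Nfkbiz at -1.05 and Traf3 at -0.72.

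Of 22 migration, egress and adhesion genes, 3 were called higher (13.6%, against 2.06% of all genes) and 0 lower, and their median was -0.18. All 3 were RGS inhibitors of G protein signalling, a family singled out here after its values were seen. Rgs13, a regulator expressed in germinal centre B cells, was at 8.32 and 6.32 in experiment 1 and 10.18 and 8.54 in experiment 2 (2.04), without overlap. Rgs1 (1.39) and Rgs2 (1.12) were called too, with overlapping experiments. The other RGS genes of that list gave no call, with Rgs16 at 0.41 and Rgs10 at -0.09. In the germinal centre and class switching list, Rgs13 was the 1 gene called of 21 (4.76%, against 4.07% of all genes).

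Surface molecules by which B cells talk to T cells were called in both directions. Of 23 tested activation and costimulation genes, 2 were called higher and 4 lower (26.1%, against 4.07% of all genes), with a median of 0.02. Fcer2a, the low-affinity IgE receptor CD23, was at 13.92 and 13.67 in experiment 1 and 11.34 and 13.15 in experiment 2 (-1.55). Icosl, the ligand of ICOS, was at 9.18 and 9.03 and then at 6.93 and 8.48 (-1.40), Tnfsf4, the OX40 ligand, gave -1.37 and the SLAM receptor Slamf7 gave -1.11, all 4 without overlap. Cd80, a ligand of CD28, was higher, at 9.10 and 8.30 in experiment 1 and 10.24 and 9.59 in experiment 2 (1.21). Cd70, the ligand of CD27, was called at 1.36, with overlapping experiments and 15.15 on the Ackr4ko array of experiment 2 against 11.44 to 12.87 on the others. The inhibitory receptor gene Lilrb4a was at 8.46 and 9.68 in experiment 1 and 6.24 and 6.17 in experiment 2 (-2.86), the last not well above background. It was the 1 gene called of 17 inhibitory receptors (5.88%, against 4.07% of all genes). It has a close paralog that its probe may not tell apart.

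Plasma cell genes were called in both directions. Jchain, which joins IgM and IgA into polymers, was at 9.70 and 11.01 in experiment 1 and 9.01 and 8.22 in experiment 2 (-1.74), without overlap. Sdc1, the plasma cell marker CD138, was at 5.66 and 5.53 and then at 6.52 and 7.42 (1.37), also without overlap. With Slamf7 these were the genes called of 19 tested (15.8%, against 4.07% of all genes). In both pairs 6 members were higher and 7 lower, near the 33% and 31.9% of all genes.

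Most cell cycle genes were higher in experiment 2 by small amounts, but the count of S phase genes moved with the scaling. Of 29 tested G2 and M phase genes, 26 were higher in both pairs (33% of all genes) and 0 lower, with no overlap between experiments in 17 (23.5% of all genes). Their median difference was 0.59, 0.57 in the Ackr4ko pair and 0.67 in the WT pair. Mad2l1, of the spindle checkpoint, was at 12.97 and 13.11 in experiment 1 and 14.65 and 13.73 in experiment 2 (1.15), with other probes down to 0.61. Cdk1, the mitotic kinase, was called at 1.10, but its 3 probes ranged from -0.13 to 1.10. Below the threshold, the centromere histone Cenpa gave 1.04, the kinase Aurka 1.03 and the cyclin Ccnb1 0.36, while the proliferation marker Mki67 gave -0.18. Of 29 S phase genes, 25 were higher in both pairs and 0 lower, with a median of 0.37. Gins2, of the replicative helicase, was called at 1.14, the helicase component Cdc45 gave 0.99 and the primase subunit Prim1 0.94, and the licensing gene Mcm2 gave -0.04. Relative to all genes, the G2 and M median was 0.40 to 0.57 and the S phase median 0.21 to 0.35 over the 5 scalings tried. The counts varied more. With median scaling, where 10.1% of all genes were higher in both pairs, 21 G2 and M genes were higher and 2 lower, and 8 S phase genes were higher and 0 lower. With quantile normalization, where 30.5% of all genes were higher, 24 G2 and M genes were higher and 0 lower, and 17 S phase genes were higher and 3 lower. With 1 array left out the relative medians were 0.37 to 0.86 and 0.25 to 0.46. Without a filter on dim probes they were 0.11 and -0.10, where the median of all genes was itself 0.47. Bright genes were common in both lists: 14 G2 and M and 16 S phase genes lay in the brightest 25% of genes, of which 52.2% were higher in both pairs with a median of 0.28. The part of brightness was not tested.

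Inhibitors of division were less even. In the list of cell cycle inhibitors and p53 targets, 10 of 23 were higher and 2 lower in both pairs, where 33% and 31.9% of all genes were. The median was 0.36, and 3 were called higher (13.0%, against 2.06% of all genes). Phlda3, an Akt inhibitor induced by p53, was called at 1.81, with overlapping experiments. It was at 10.21 and 8.39 in experiment 1 and 12.35 and 9.87 in experiment 2. With 1 array left out its difference ranged from 0.57 to 3.05. Cdkn1a (1.18) and Cdkn2a (1.21) were called as well, but their WT arrays were not well above background in either experiment, and their experiments overlapped. The list stood at 0.75 in the Ackr4ko pair and 0.13 in the WT pair.

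Mitochondrial, proteasome and ribosomal protein genes were mostly higher under the 75th percentile scaling, less so under others, and nearly all lay among the brightest genes. Of 28 oxidative phosphorylation subunits, 23 were higher in both pairs and 1 was lower, with a median of 0.61, but 0.95 in the Ackr4ko pair against 0.22 in the WT pair. None was called. Ndufb8, a subunit of complex I, was at 15.07 and 14.80 in experiment 1 and 16.28 and 15.66 in experiment 2 (1.04, limma adjusted p = 0.061), and Ndufa4 gave 1.02 (0.067). The flavoprotein Sdha gave -0.02 and the complex I subunit Ndufs1 -0.10. Of 23 proteasome genes, 17 were higher in both pairs and 0 lower, with a median of 0.52 (0.87 and 0.07 in the pairs) and the core subunit Psma1 at 0.79. Of 29 cytosolic ribosomal protein genes, 20 were higher in both pairs and 0 lower, with a median of 0.37 (0.69 and 0.03) and Rps2 at 0.51. All 28 oxidative phosphorylation genes, all 29 ribosomal protein genes and 22 of the 23 proteasome genes lay in the brightest 25% of genes, where the median of all genes was 0.28 (0.50 and 0.05 in the pairs) and 52.2% of genes were higher in both pairs. In the other 3 brightness groups that median was -0.09 to -0.03. With median scaling (10.1% of all genes higher in both pairs), 7 oxidative phosphorylation genes were higher and 1 lower, 4 proteasome genes were higher and 2 lower, and 1 ribosomal protein gene was higher and 0 lower. With quantile normalization (30.5% of all genes higher, 34.8% lower), the counts were 19 and 3, 10 and 8, and 9 and 9. Over the 5 scalings the ribosomal protein median relative to all genes fell to as little as 0.01, while oxidative phosphorylation kept at least 0.30 and the proteasome at least 0.25. The part that brightness plays in these lists was not tested.

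**Figure D3:**
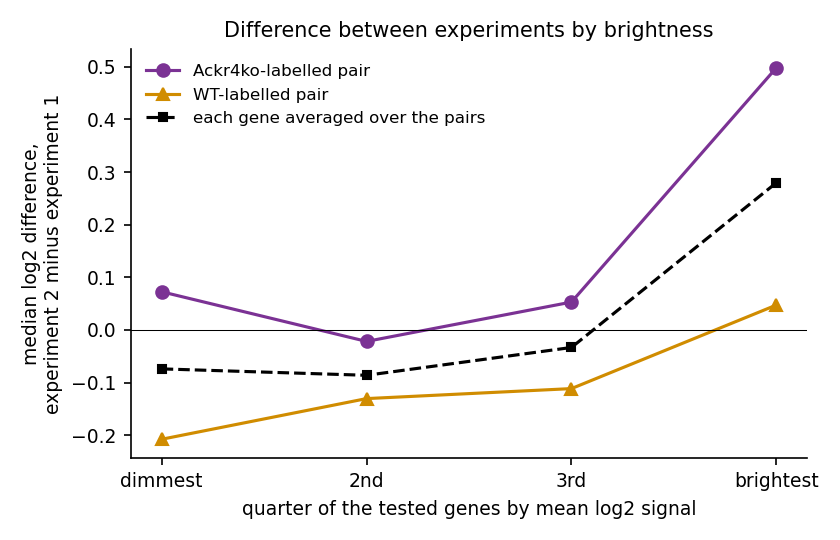
Median log2 difference of experiment 2 minus experiment 1 in 4 groups of 25% of the tested genes by mean log2 signal, for the Ackr4ko pair, the WT pair and each gene's mean over the pairs. The median is 0.28 in the brightest group and between -0.09 and -0.03 in the others, and the Ackr4ko pair (0.50) lies above the WT pair (0.05) there.

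Genes of low oxygen and sugar breakdown differed by pair. Of 20 hypoxia response genes outside glycolysis, 8 were higher and 1 lower in both pairs, where 33% and 31.9% of all genes were. The median was -0.19 in the Ackr4ko pair and 1.05 in the WT pair, and 2 were called higher (10%, against 2.06% of all genes). Bnip3, a mitophagy receptor, was at 15.20 and 12.58 in experiment 1 and 15.63 and 15.12 in experiment 2 (1.49), so that the WT array of experiment 1 was the low one. Egln3, the oxygen-sensing prolyl hydroxylase, was called at 1.14 with differences of -0.67 and 2.95 in the pairs. Its WT array of experiment 1 was not well above background. The carbonic anhydrase Car9 (1.06) and Fam162a (1.07) were even between the pairs and not called. Glycolysis genes had a median of 0.32 (0.09 and 0.61), with 11 of 22 higher in both pairs. The enolase Eno2 was called at 1.15, with overlapping experiments and its WT array of experiment 2 not well above background. In the amino acid response list Vldlr, a lipoprotein receptor, was called at 1.78 although its pairs gave -0.78 and 4.34. The WT array of experiment 1, from which its 4.34 was taken, was not well above background. In the heat shock list Hspb1, a small chaperone, was called at 1.72.

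**Figure D4:**
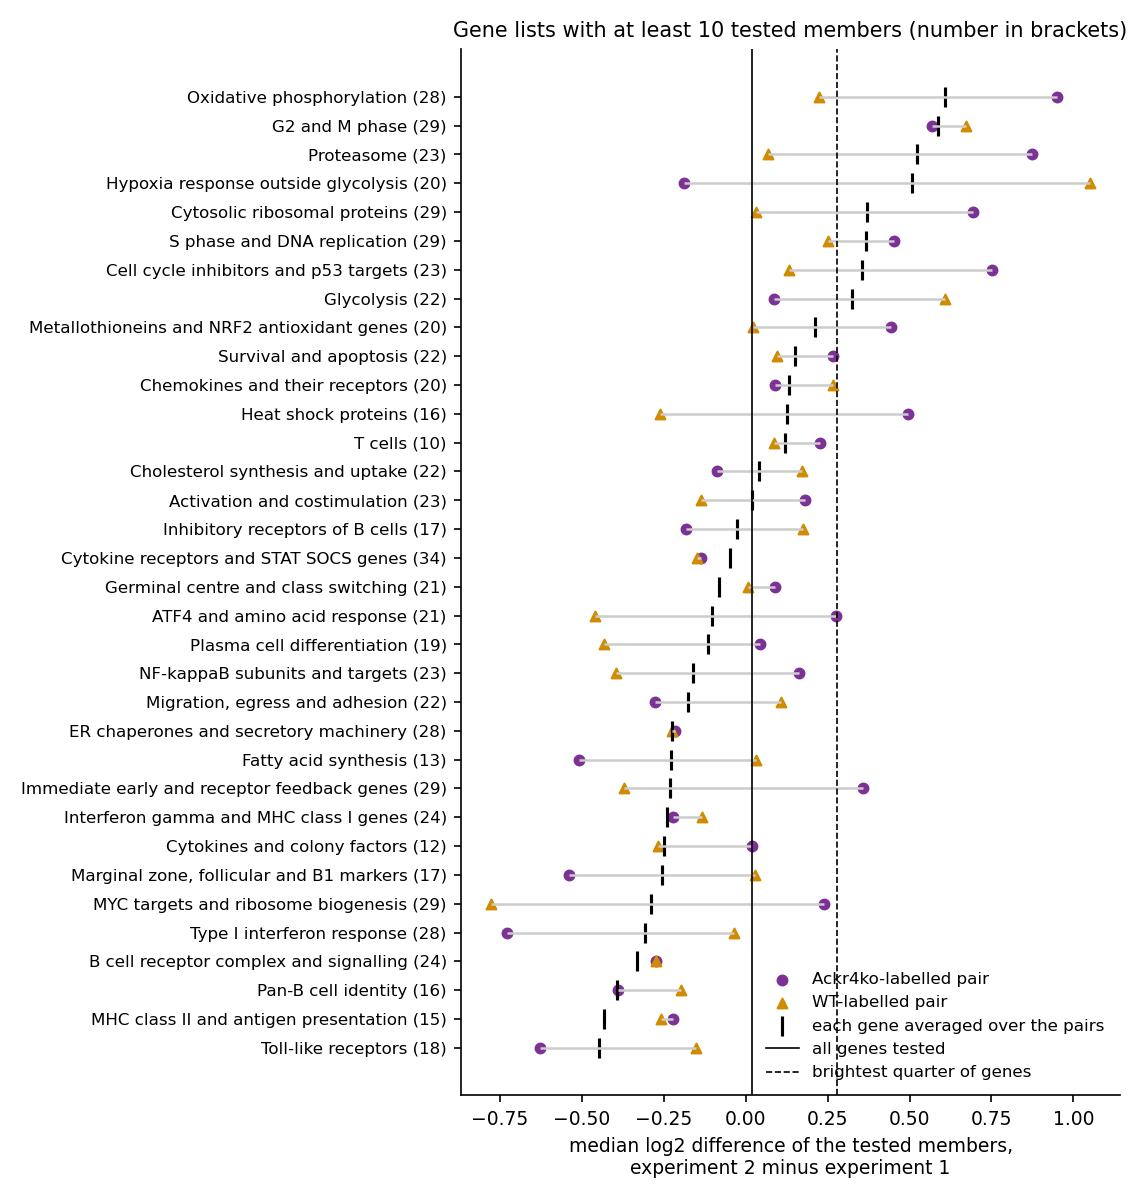
Median log2 difference of experiment 2 minus experiment 1 over the tested members of each gene list with at least 10 of them, in the Ackr4ko pair (circles), the WT pair (triangles) and with each gene averaged over the pairs first (bars), which need not lie between the other values. The solid line marks all genes (0.02) and the dashed line the brightest 25% of genes (0.28), and lists run from oxidative phosphorylation (0.61) down to Toll-like receptors (-0.45).

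Genes of B cell identity and antigen recognition lay lower in experiment 2, with few single genes called. Of 24 genes of the B cell receptor complex and its signalling, 16 were lower in both pairs (31.9% of all genes) and 1 higher, and 13 had no overlap (24.1% of all genes). Their median was -0.33, with -0.27 in each pair, and none was called. The lipid phosphatase Inpp5d gave -0.66 and the calcium-responsive factor Nfatc1 -0.76. Of 16 B cell identity genes, 9 were lower and 1 higher in both pairs, with a median of -0.39. Pax5, the factor that keeps B cell identity, was at 9.01 and 8.82 in experiment 1 and 8.14 and 8.23 in experiment 2 (-0.73, limma adjusted p = 0.27). Cd79a, a signalling chain of the receptor, gave -0.62, while Cd79b gave -0.05 and Ms4a1, which encodes CD20, 0.08. The summed signal of these 16 genes was 552000 and 672000 in experiment 1 and 475000 and 603000 in experiment 2, which overlap. Of 18 Toll-like receptor genes, 8 were lower and 2 higher in both pairs, with a median of -0.45 and Cd180 at -0.65. None was called.

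Antigen presentation through MHC class II followed the same direction. Of 15 tested genes, 8 were lower (31.9% of all genes) and 2 higher in both pairs, and in 8 both arrays of experiment 2 lay below both of experiment 1 (24.1% of all genes). Ciita, the master regulator of class II genes, was at 10.18 and 10.28 in experiment 1 and 8.83 and 9.26 in experiment 2 (-1.19), although its 3 probes ranged from -1.19 to -0.37. The peptide-loading genes H2-Ob (-0.98) and H2-DMa (-0.52) and the invariant chain Cd74 (-0.43) were lower in both pairs without a call, while H2-Ab1, a chain of the class II molecule itself, gave 0.06 and the protease Ctss 0.17. The median of the list was -0.43. Relative to all genes, the medians of the class II, identity, receptor signalling and Toll-like receptor lists stayed below 0 under the 5 scalings, at -0.62 to -0.35, and with 1 array left out they stayed below 0 in the first 3 but reached 0.06 for Toll-like receptors.

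Interferon response genes were lower in the Ackr4ko pair more than in the WT pair. Of 28 tested type I interferon genes, 13 were lower and 4 higher in both pairs, where 31.9% and 33% of all genes were. Their median was -0.31, with -0.73 in the Ackr4ko pair and -0.03 in the WT pair. Of the 28 genes, 14.3% were called, against 4.07% of all genes. Those called were Oasl1, Oasl2 and Oas2, members of the oligoadenylate synthetase family, which were lower, and the nucleic acid sensor Zbp1, which was higher. Oasl1 was at 7.92 and 8.24 in experiment 1 and 6.63 and 6.71 in experiment 2 (-1.41), the last not well above background. Neither array of experiment 2 measured Oasl2 or Oas2 well above background, and their bounds were 2.65-fold and 1.21-fold brighter in experiment 1. Under other scalings the log2 difference of Oasl2 shrank to as little as -0.52, and Oas2 gave 0.10 with normexp. Zbp1 was at 11.01 and 11.68 and then at 12.80 and 12.48 (1.30), with its other probe at 0.17. Bst2, which tethers virions, gave 0.95. Mx1 (-2.42 and 1.01), Ifit3 (-2.61 and 2.03) and Rtp4 (-2.37 and 0.25) were among the members with opposite signs in the pairs. For Mx1 and Ifit3 the Ackr4ko array of experiment 2 was not well above background.

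**Figure D5:**
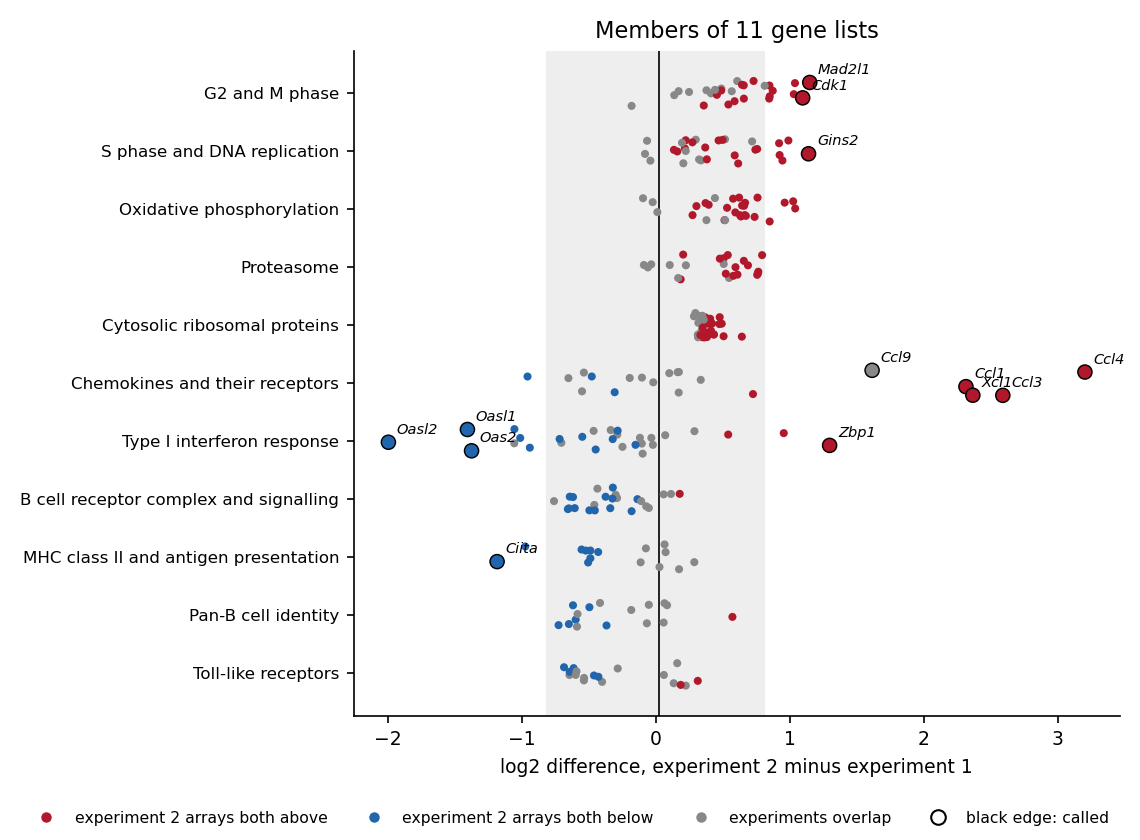
Log2 difference of experiment 2 minus experiment 1 of each tested member of 11 gene lists, coloured by whether the arrays of experiment 2 lie both above (red), both below (blue) or overlapping (grey) those of experiment 1, with called genes outlined and named. The grey band spans the 5th to the 95th percentile of all genes (-0.81 to 0.80), within which most members of the cell cycle, mitochondrial and B cell lists lie.

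Growth genes differed by pair. Of 29 MYC targets and ribosome biogenesis genes, 13 were lower and 3 higher in both pairs, where 31.9% and 33% of all genes were. The median, however, was 0.24 in the Ackr4ko pair and -0.78 in the WT pair. Pes1, a ribosome assembly factor, was called at -1.07, with its other probe at 0.33. Myc itself gave -0.95, with -0.17 and -1.73 in the pairs. Secretory pathway genes were more even, with 17 of 28 lower and 6 higher in both pairs and a median of -0.22, -0.21 and -0.23 in the pairs. The stress sensor Atf6 gave -0.70 and none was called. Lipid synthesis genes had no call either, with a median of 0.04 over 22 cholesterol genes and -0.23 over 13 fatty acid genes, where Fasn gave -0.82. Among 22 survival and apoptosis genes, with a median of 0.15 and no call, the pro-apoptotic Bbc3 gave 1.00. In the marginal zone, follicular and B1 list Fcer2a was the 1 gene called of 17 (5.88%, against 4.07% of all genes), and the median was -0.25.

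The genes called lower and measured in both experiments were led by Tmem151b, a membrane protein, at 8.72 and 9.85 in experiment 1 and 5.56 and 6.64 in experiment 2 (-3.19), followed by Lilrb4a. Ell3, a transcription elongation factor, was at 8.16 and 9.15 and then at 5.42 and 6.97 (-2.46). Apoe, the lipid carrier apolipoprotein E, was the brightest of them, at 12.13 and 13.83 in experiment 1 and 9.87 and 11.60 in experiment 2 (-2.25), without overlap and well above background on all 4 arrays. The PI3 kinase subunit Pik3r3 (-2.32), the granule protein Chga (-2.27), the cytoskeletal Gas7 (-2.23), the glutamate receptor Grm6 (-2.21), the cytochrome oxidase isoform Cox6a2 (-1.98), Ccdc116 (-1.97), Hba-a2 and the secreted nuclease Dnase1l3 (-1.76) completed the 12 largest among those at least 2-fold lower in both pairs. The experiments overlapped in Chga and Cox6a2, whose differences with 1 array left out ranged from -4.39 to -0.15 and from -3.92 to -0.05. Of the 12, Ell3, Apoe and Grm6 were well above background on all 4 arrays. A further 74 called genes with an established symbol and a bound above 1-fold were well above background on both arrays of experiment 1 and on neither of experiment 2, against 2 the other way. In either direction, these genes passed the filter only through the experiment in which they were bright. Of the 321 genes called lower, 135 were well above background on no array of experiment 2. Of the 329 called higher, 2 were so on no array of experiment 1. The largest bounds were those of Eps8l1, an actin regulator, at least 6.64-fold brighter in experiment 1, and of Pgap6 (at least 4.59-fold), Klhdc8b (3.22-fold), Ccdc17 (3.12-fold), the ATP receptor P2rx5 (2.95-fold) and Carmil3 (2.89-fold, with its other probe at -0.86). Eps8l1 was at 8.20 and 7.70 in experiment 1 and Carmil3 at 6.76 and 6.74. Experiment 2 also had the lower share of probes well above background (49.5% and 42.2% against 54.9% and 52.6%), and the part of this in the dim genes was not tested. In a further count, values not well above background were raised to the array's lowest signal well above background where they lay under it. By that count 158 genes were at least 2-fold higher in both pairs and 106 lower, in place of 141 and 152.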

How the data were processed

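The data are 4 Agilent 1-colour arrays of cultured spleen B cells. Per the submitters' processing notes, the scanner images were read with Agilent Feature Extraction 10.7.3.1. The deposited scanner files give spot intensity with flags for outliers and for signal well above background. The authors' deposited value table gives 1 normalized intensity per probe, and its normalization is not given in the sources used here. Probe positions are on mm9, per the file headers.

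From the scanner files, control and outlier spots were left out, the 4 spots of a probe were averaged as log2 processed signal, and each array was scaled to its 75th percentile, keeping the mean of the 4 percentiles as a common level. The test took the 20862 of 39429 probes with 50% or more of their spots well above background on 2 arrays or more, and the brightest tested probe stood for its gene (15961 genes). Of the probes, 28639 were named by accession, 3084 by symbol and 316 by synonym in a RefSeq GRCm38.p6 table, and 7390 kept the array's name.

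Experiment 2 was compared with experiment 1 with limma 3.58.1 under R 4.3.3 (linear fit with eBayes, genotype label as block, two-sided, Benjamini-Hochberg over all genes), and the script was tested on simulated data. The number of arrays limits the precision. Alternatives covered scaling, background correction, filters, probe choice, the value table, the block, the variance prior and each array left out. The members and the 41 gene lists (721 distinct tested genes) were chosen with earlier results of these data known. Named were, in each direction, the 12 largest called differences that were at least 2-fold in both pairs and measured in both experiments, up to 6 lower bounds, and from each list its largest called members or the 2 with the smallest p. Members of a list named besides these were chosen after their values were seen. Genes without an established symbol, 51 of the called genes that were at least 2-fold different in both pairs, were counted only. Some genes are not reported here.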

Additional observations from a re-analysis of the deposited data

Results flagged for a closer look

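Some differences between experiments ran in opposite directions in the pair of arrays labelled Ackr4ko and the pair labelled WT. With 1 array per genotype and experiment this difference between pairs was not tested, and each pair includes 1 array of experiment 2, of which the WT array stood apart in quality. In 37 genes the signal was at least 2-fold different in each pair, in opposite directions. Examples with an established symbol, given as the Ackr4ko pair and then the WT pair, were the nuclear receptor Nr4a1 (2.91 and -1.61), the plasma cell factor Prdm1 (-2.23 and 2.04), and the interferon-induced Ifit3 (-2.61 and 2.03) and Mx1 (-2.42 and 1.01). For Prdm1, Ifit3 and Mx1 the Ackr4ko array of experiment 2 was not well above background, so the size of their Ackr4ko pair difference is uncertain. The median difference of the MYC target and ribosome biogenesis list was 0.24 in the Ackr4ko pair and -0.78 in the WT pair. That of the heat shock list was 0.49 and -0.26, that of the immediate early and receptor feedback list 0.36 and -0.37, and that of the ATF4 and amino acid response list 0.27 and -0.46. Over all genes the medians of the pairs were 0.13 and -0.08.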

How the results depend on the processing

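The 650 genes called became 0 with quantile normalization, 0 in the authors' value table and 0 without the genotype block, 263 with median scaling (70 higher, 193 lower, 26.6% higher against 50.6%) and 11099 without a filter on dim probes (10748 higher), where the median of all genes was 0.47. With 1 array left out, limma called 0 to 200. Normexp gave 652 (69.9% higher), of which 383 were among the 650. The 293 genes that both pairs showed 2-fold or more higher, or lower, became 475 with median scaling (77 higher, 398 lower), 103 with normexp (71 and 32), 1718 without a filter (1565 and 153), 147 with probes well above background on all 4 arrays (90 and 57), and 256 to 1470 with 1 array left out, where the remaining array of an experiment was set against both of the other. The median of all genes was -0.20 with median scaling and 0.14 with normexp. Of the 79 named genes called, none changed sign under another scaling except Oas2 (0.10 with normexp). With 1 array left out, differences ranged from -1.40 to 3.75 for Cdkn1a, -0.54 to 2.97 for Cdkn2a, -0.69 to 2.99 for Eno2, -1.39 to 3.67 for Egln3, -0.52 to 4.57 for Atf3, -0.99 to 4.55 for Vldlr, -0.26 to 2.99 for Cd70, -1.06 to 4.48 for Il6 and -0.21 to 3.04 for Hbb-bt. The cause was not tested. The arrays were paired by genotype label, as the block and in the matched pairs. By replicate number, no paired analysis was possible because the experiments share only 1 number in the labels. Signal over background limits dim genes most on the WT array of experiment 2.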

Other observations

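Outside the gene lists, and chosen after their values were seen, further called genes did not overlap between experiments and were well above background on all 4 arrays. Ola1, an ATPase, was at 11.95 and 11.77 in experiment 1 (Ackr4ko label, then WT label) and 15.07 and 13.48 in experiment 2. Tnfsf8, the CD30 ligand, was at 6.29 and 5.88 and then at 8.74 and 8.16. Anxa2, a membrane-binding annexin, was at 10.79 and 8.39 and then at 12.67 and 10.90, and S100a6, a calcium-binding protein, at 5.98 and 5.39 and then at 7.73 and 7.37. The LIM domain gene Csrp2 was at 13.53 and 13.25 and then at 15.23 and 15.01, the most even of these. The histone genes H3c8 (1.78) and H4c17 (1.77), which belong to families of near-identical copies that array probes may not tell apart, were higher as well.

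Among the genes lower in experiment 2, Cd96, an adhesion receptor of T and NK cells, was at 10.04 and 9.77 in experiment 1 and 6.95 and 9.28 in experiment 2. Lynx1, a modulator of acetylcholine receptors, was at 12.94 and 13.33 and then at 10.27 and 12.45. In both genes the Ackr4ko array of experiment 2 was the lowest of the 4. These are values and were not tested beyond the calls described above.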
